A study of Homo sapiens with 12 samples.

Results

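The genes of cholesterol and fatty acid synthesis were examined in 3 basal-like breast cancer cell lines after knock-down of the long non-coding RNA (lncRNA) with the Ensembl identifier ENSG00000258910. The set is a list of 35 genes defined by function, chosen with earlier results of these data known. It holds 7 enzymes of the mevalonate pathway, 11 enzymes that turn its product into cholesterol, 6 SREBP regulators and transport genes, and 11 enzymes of fatty acid synthesis. The first 2 groups, 18 genes, are called the sterol branch. Of the 35 genes, 34 were matched to an Ensembl identifier of the 63677 in the files, and all 34 passed the filter on low counts. ACACA, an acetyl-CoA carboxylase, was not matched and was not analysed here, which left 10 genes in the fatty acid branch.

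The groups were MDA-MB-468, SUM149PT and HCC38 cells, each an established line, transfected at seeding with a non-targeting locked nucleic acid antisense oligonucleotide (LNA NS) or with LNA1 and LNA2 against the lncRNA (KD), at 50 nM. The medium was renewed after 6 h and the cells were collected after 24 h. Each line and treatment had 2 libraries, 12 in all, of poly-A RNA. Whether the 2 libraries of a group were grown as separate cultures is not stated, and p-values therefore describe only how far these samples spread, in part perhaps for technical reasons. LNA1 and LNA2 were given together, in the only KD group of each line. A lower level of the lncRNA and any other effect of these LNAs therefore cannot be told apart. No line had an untransfected group here either.

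Cholesterol and fatty acids are both built from cytosolic acetyl-CoA. The mevalonate pathway makes farnesyl pyrophosphate, which sterol enzymes turn through squalene and lanosterol into cholesterol, while carboxylation of acetyl-CoA starts the fatty acid chain that elongases and desaturases later modify. Both branches are controlled by SREBP transcription factors, which are held in the endoplasmic reticulum membrane with SCAP and the INSIG proteins and are released to the nucleus when sterols run low. SREBF2 encodes the factor that mainly serves cholesterol genes, and SREBF1 the one that mainly serves fatty acid genes.

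Gene counts ran from 32187835 to 56191152 a library. Levels are given as TMM-scaled CPM, in which each library's gene counts are brought to a common total. In MDA-MB-468 the lncRNA went from 0.611 to 0.796 CPM in LNA NS to 0.0230 to 0.0235 CPM in KD, in SUM149PT from 10.7 to 11.2 to 0.416 to 0.576, and in HCC38 from 14.6 to 15.1 to 1.48 to 2.05 CPM. Of the markers of other cells, the 3 immune ones (PTPRC, CD3E and LYZ) stayed at or under 0.119 CPM in every library, and the fat cell markers ADIPOQ and LEP at or under 0.0471 CPM. The basal keratins KRT14 and KRT17 were near 0 in HCC38, down to 0.368 and 0.512 CPM, while KRT5 was at least 46.3 CPM in every library. The summed level of 7 basal epithelial markers was lower in KD, at 5391 to 5718 CPM against 8364 to 9098 in MDA-MB-468, 4188 to 4346 against 5200 to 5320 in SUM149PT, and 1063 to 1082 against 1181 to 1182 in HCC38. The sum is weighted to the most abundant markers and does not show that each of them fell. The highest level in any library was 6055 CPM for EGFR and 60.8 CPM for KRT14. CDH5, the endothelial marker matched, was 6.38 to 6.97 CPM in KD against 1.70 to 2.31 in LNA NS of MDA-MB-468, 2.08 to 2.23 against 0.241 to 0.423 in SUM149PT and at most 0.0437 in HCC38. The 3 fat cell markers summed to 2.55 to 3.53 CPM in KD against 1.46 to 1.84 in MDA-MB-468, 0.624 to 0.985 against 0.375 to 0.391 in SUM149PT, and 1.34 to 1.43 against 0.655 to 0.699 in HCC38, nearly all of it PLIN1. The 2 fibroblast markers summed to 112 to 119 CPM in KD against 88.1 to 106 in HCC38, 63.4 to 69.3 against 72.0 to 73.7 in SUM149PT, and 18.8 to 20.9 against 16.7 to 18.9 in MDA-MB-468, where the groups overlapped. The 5 luminal and hormone receptor markers summed to 176 to 177 CPM in KD against 189 to 206 in MDA-MB-468, 137 to 140 against 113 to 129 in SUM149PT, and 234 to 237 against 209 to 226 in HCC38. The part of these shifts in the results was not tested. In bulk libraries, fewer cells of a type and less RNA per cell cannot be told apart.

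After knock-down, more of the 34 genes fell than rose in each line. A gene is said to have risen or fallen where edgeR's quasi-likelihood test gave a Benjamini-Hochberg adjusted p under 0.1 over all 21325 genes tested. In MDA-MB-468, 19 genes fell and 5 rose, where 25.7% of all genes tested fell and 24.9% rose. In SUM149PT, 15 fell and 3 rose, against 18.0% and 20.0% of all genes. In HCC38, 15 fell and 3 rose, against 18.4% and 15.5%. In the mean of the 3 lines, 19 fell and 3 rose, against 26.5% and 28.4%. The median log2 fold change of the 34 genes was -0.41, -0.22 and -0.24 in MDA-MB-468, SUM149PT and HCC38, where that of all genes was 0, 0.03 and 0.01. In all 3 lines 11 genes fell and 1 rose, HMGCS1 passed in all 3 with mixed directions, and 7 genes passed in none. The shares of all genes tested with these joint patterns were not counted, so these numbers are descriptions only. Upper quartile scaling raised the share of called genes that were higher from 49.2% to 59.5% in MDA-MB-468, from 45.8% to 63.4% in HCC38 and from 51.8% to 62.9% in the mean. Under it the members split into 10 that rose and 19 that fell in MDA-MB-468, 5 and 10 in HCC38, and 7 and 17 in the mean.

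**Figure D1:**
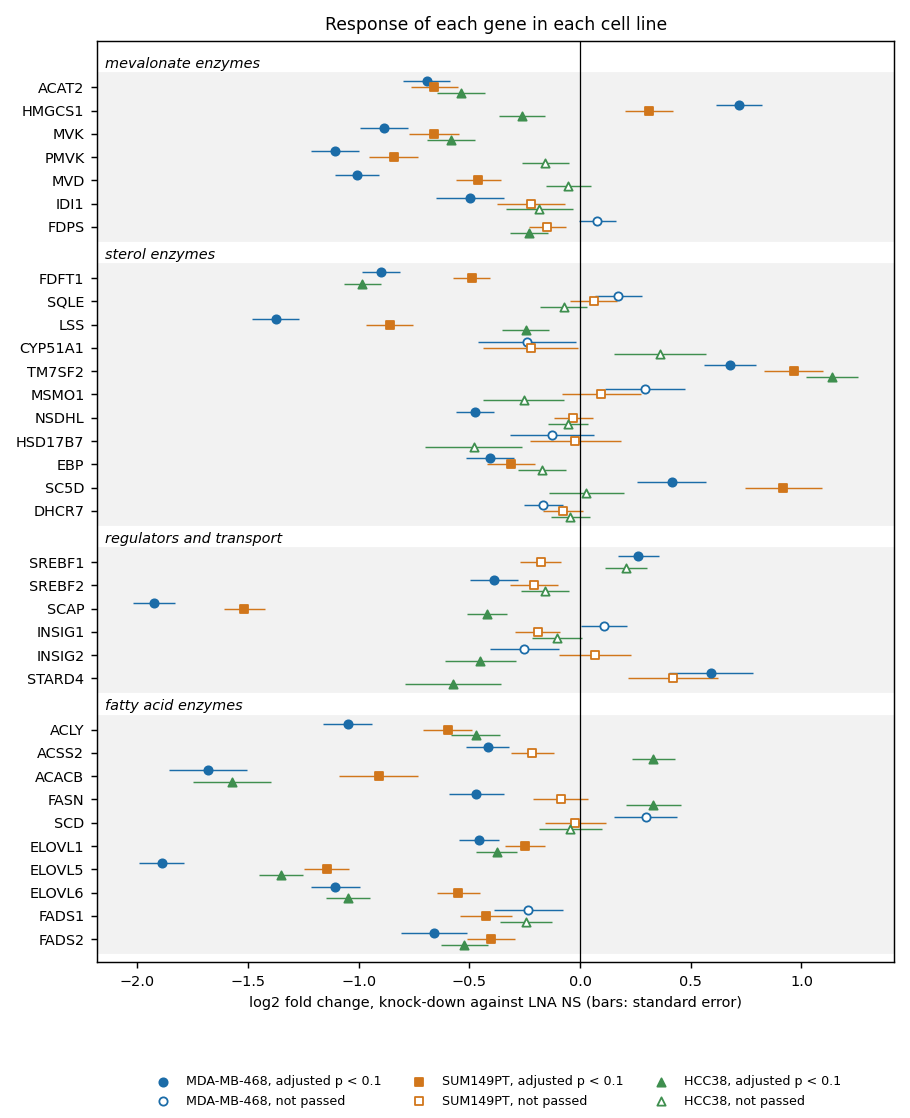
The log2 fold change of KD against LNA NS (horizontal axis) of each of the 34 genes in each line, with bars for the standard error of the fit and filled marks for an adjusted p under 0.1. Most marks lie to the left of 0, TM7SF2 lies to the right in all 3 lines, and SCAP, LSS and HMGCS1 are spread widely between lines.

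The fatty acid branch had the larger share of falls. Of its 10 genes, MDA-MB-468 showed 8 falls, SUM149PT 7 and HCC38 6, and 6 of them (ACLY, ACACB, ELOVL1, ELOVL5, ELOVL6 and FADS2) fell in all 3 lines. Of the 18 sterol branch genes, 9, 7 and 6 fell and 3, 3 and 1 rose in MDA-MB-468, SUM149PT and HCC38. Of these, 4 (ACAT2, MVK, FDFT1 and LSS) fell in all 3 lines. The median log2 fold change was -0.56, -0.41 and -0.42 in the fatty acid branch and -0.32, -0.18 and -0.18 in the sterol branch, in the same order of lines. The difference between the branches was not tested, and the share of all genes that fell in all 3 lines was not counted. The branches also differ in gene span, which is taken up below. Every sterol branch gene spans under 50 kb, while ACLY, ACSS2, ACACB, ELOVL5, ELOVL6 and FADS2 span more. The part of span in the difference between the branches was not tested.

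The summed level of each branch was also lower in KD in every line. The 18 sterol branch genes summed to 1850 ± 37.7 CPM (SD, n = 2) in LNA NS and 1391 ± 29.4 in KD of MDA-MB-468, which is 75.2% of the control level. The sum was 84.6% of control in SUM149PT and 82.4% in HCC38. The 10 fatty acid genes stood at 65.6%, 85.0% and 88.5% of control, but FASN alone made up 40.2% to 43.1% of that sum in the control libraries of MDA-MB-468, 49.5% to 51.6% in SUM149PT and 27.4% to 30.1% in HCC38. In HCC38, where FASN did not fall, the 2 control libraries held 1503 and 1727 CPM of fatty acid genes and the KD libraries 1480 and 1379, so that the higher KD library lay just under the lower control. These sums are descriptions and were not tested.

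Among the mevalonate enzymes, the kinase MVK and the thiolase ACAT2 fell alike in the 3 lines, and PMVK fell in MDA-MB-468 and SUM149PT. MVK, which phosphorylates mevalonate, was at 36.7 and 35.4 CPM in LNA NS and 20.8 and 18.1 in KD of MDA-MB-468, at 17.7 and 17.9 against 11.4 and 11.1 in SUM149PT, and at 21.6 and 21.9 against 14.2 and 14.9 in HCC38. In every line both KD libraries lay below both controls, but the share of all genes for which this holds was not counted. The mean log2 fold change was -0.71 ± 0.06 (SE, edgeR adjusted p = 1.5e-07), and the F test found no difference between lines (adjusted p = 0.289). ACAT2, which joins acetyl-CoA units at the head of the pathway, was at 98.7 and 97.1 CPM in LNA NS and 63.3 and 57.9 in KD of MDA-MB-468, at 48.8 and 49.0 against 33.5 and 28.4 in SUM149PT, and at 37.4 and 32.5 against 24.9 and 23.2 in HCC38. Its log2 fold changes of -0.69, -0.66 and -0.54 were within 2 standard errors of each other (SE 0.11 in each). MVK overlaps MMAB and ACAT2 overlaps TCP1 on the opposite strand, and the strand setting of the counting is not known here. The same holds for CYP51A1 (AKAP9), SREBF1 (RAI1), ACSS2 (GGT7) and the antisense genes at SREBF2, FDPS and STARD4, and reads of HSD17B7 and FDPS could be split with their pseudogenes HSD17B7P2 and FDPSP8.

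PMVK, which phosphorylates mevalonate a further time, was at 66.3 and 62.1 CPM in LNA NS and 28.9 and 30.7 in KD of MDA-MB-468, and at 27.4 and 28.7 against 14.7 and 16.6 in SUM149PT. In HCC38 it was at 38.8 and 34.5 against 31.0 and 34.9, and there the groups overlapped. MVD, the decarboxylase of the next step, had the same order of lines, at 194 and 190 CPM against 102 and 89.3 in MDA-MB-468, 58.5 and 65.5 against 43.1 and 47.2 in SUM149PT, and 48.0 and 45.7 against 42.7 and 47.6 in HCC38. The log2 fold changes of PMVK were -1.11 ± 0.11, -0.84 ± 0.11 and -0.16 ± 0.11, and those of MVD were -1.01 ± 0.10, -0.46 ± 0.10 and -0.05 ± 0.10. Both differed between lines (edgeR F test, adjusted p = 0.00124 for PMVK and 0.000891 for MVD).

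HMGCS1, which makes the HMG-CoA from which mevalonate is formed, had calls in opposite directions, of which the one in HCC38 was weak. It was at 55.9 and 53.5 CPM in LNA NS and 91.1 and 88.9 in KD of MDA-MB-468, at 26.2 and 25.1 against 33.8 and 29.8 in SUM149PT, and at 65.9 and 66.3 against 60.2 and 49.8 in HCC38. It rose by 0.72 ± 0.10 and 0.31 ± 0.11 (log2) in MDA-MB-468 and SUM149PT and fell by 0.26 ± 0.10 in HCC38 (adjusted p = 0.0745), and the responses differed between lines (adjusted p = 0.000976). The HCC38 call was lost in 6 of the 12 omissions of a library: without either HCC38 control, HCC38 KD replicate 2, either MDA-MB-468 control or SUM149PT LNA NS replicate 1, with log2 fold changes between -0.27 and -0.13. Without HCC38 KD replicate 1 it was -0.43. It was also lost with DESeq2 size factors, upper quartile scaling (-0.14), no filter, at least 10 counts in every library and each line fitted alone (adjusted p = 0.103 to 0.326). The SUM149PT call was lost without either of its controls or its KD replicate 1, with values between 0.21 and 0.35, and with the gene span trend removed (0.24).

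The other mevalonate enzymes, IDI1 and FDPS, passed in 1 line each. IDI1, the isomerase that makes dimethylallyl pyrophosphate, fell in MDA-MB-468 by 0.50 ± 0.15 on the log2 scale (adjusted p = 0.0145), which without LNA NS replicate 1 of that line was -0.40 and missed the threshold. In the mean IDI1 fell by 0.30 (edgeR adjusted p = 0.00978). In HCC38 its control libraries were far apart, at 71.0 and 52.2 CPM, and without control replicate 2 it passed there with a value of -0.40. FDPS, which makes farnesyl pyrophosphate, fell in HCC38 by 0.23 ± 0.09 (adjusted p = 0.0576). That call was lost without HCC38 LNA NS replicate 1 (-0.15), KD replicate 1 (-0.27) or KD replicate 2 (-0.21). It was also lost with upper quartile scaling (-0.10), no filter and each line fitted alone (edgeR adjusted p = 0.133 to 0.410).

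Among the sterol enzymes, FDFT1 and LSS had the largest falls in the mean. FDFT1, which makes squalene and so commits the pathway to sterols, was at 248 and 251 CPM in LNA NS and 142 and 125 in KD of MDA-MB-468, at 149 and 148 against 108 and 103 in SUM149PT, and at 243 and 235 against 119 and 123 in HCC38. Its log2 fold changes were -0.90 ± 0.08, -0.49 ± 0.08 and -0.98 ± 0.08, and the response was smallest in SUM149PT (F test of the lines, adjusted p = 0.0135). LSS, which closes the rings to lanosterol, was at 197 and 212 CPM against 86.8 and 71.0 in MDA-MB-468, at 114 and 104 against 62.0 and 58.1 in SUM149PT, and at 61.3 and 66.3 against 54.8 and 52.8 in HCC38. The log2 fold change of LSS went from -1.38 ± 0.11 over -0.86 ± 0.11 to -0.25 ± 0.10 (F test, adjusted p = 0.00036). The HCC38 value had an adjusted p of 0.0968 and missed the threshold in 10 of the 12 omissions of a library, with adjusted p between 0.104 and 0.346. Of the omissions, only those of MDA-MB-468 KD replicate 1 or 2 kept it. It was also lost with DESeq2 size factors, upper quartile scaling, the DESeq2 test, no filter, at least 10 counts in every library, each line fitted alone and the span trend removed (adjusted p = 0.109 to 0.409), so that the count of LSS among the falls in HCC38 rests on the settings chosen.

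TM7SF2 was the sole gene that rose in all 3 lines. It encodes a sterol C14 reductase. Its level was 17.6 and 19.9 CPM in LNA NS and 30.1 and 29.8 in KD of MDA-MB-468, 4.93 and 4.69 against 9.30 and 9.51 in SUM149PT, and 13.3 and 12.6 against 26.3 and 30.8 in HCC38. The log2 fold changes were 0.68 ± 0.12, 0.96 ± 0.13 and 1.14 ± 0.12, with a mean of 0.93 ± 0.07 (adjusted p = 2.69e-08). TM7SF2 overlaps VPS51 on the same strand, which had a mean of 3803 counts a library against 744 for TM7SF2, so reads of the shared stretch could not be assigned with certainty.

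SC5D, the desaturase that puts in a late double bond, was at 75.3 and 66.1 CPM against 81.2 and 107 in MDA-MB-468, 8.46 and 7.88 against 14.1 and 16.9 in SUM149PT, and 14.0 and 10.2 against 11.4 and 13.4 in HCC38. It rose in SUM149PT by 0.92 ± 0.17 on the log2 scale and in MDA-MB-468 by 0.41 ± 0.15, and its HCC38 groups overlapped. Omitting LNA NS replicate 2 (0.32) or KD replicate 2 (0.20) ended the MDA-MB-468 call, and the difference between lines (adjusted p = 0.0368) was lost without SUM149PT KD replicate 2 or HCC38 LNA NS replicate 1 (adjusted p = 0.111 and 0.112). EBP, a sterol isomerase, fell in MDA-MB-468 by 0.41 ± 0.11 and in SUM149PT by 0.31 ± 0.11, but the latter call ended on omission of LNA NS replicate 2 (-0.25) or KD replicate 2 (-0.27) of that line. NSDHL, a sterol dehydrogenase, fell in MDA-MB-468 by 0.47 ± 0.09, with values of -0.03 and -0.05 in the other lines.

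For 5 sterol enzymes no line passed the test. These were SQLE, the epoxidase that follows squalene, the demethylating enzymes CYP51A1 and MSMO1, the reductase HSD17B7, and DHCR7, which carries out the last reduction to cholesterol. SQLE ranged from -0.07 to 0.17 on the log2 scale and DHCR7 from -0.17 to -0.05, with standard errors of 0.09 to 0.11. CYP51A1 and HSD17B7 were low, at 3.62 to 8.67 and 1.53 to 8.08 CPM, and their standard errors of 0.19 to 0.22 leave room for changes that would not be detectable at this depth. Single libraries decided some of these. CYP51A1 passed in MDA-MB-468 without LNA NS replicate 1 (-0.59), MSMO1 without KD replicate 1 of that line (0.46) and in HCC38 without LNA NS replicate 2 (-0.56), and HSD17B7 in HCC38 without LNA NS or KD replicate 1 (-0.67 and -0.79). DHCR7 passed in the mean without HCC38 LNA NS replicate 1 (-0.13).

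**Figure D2:**
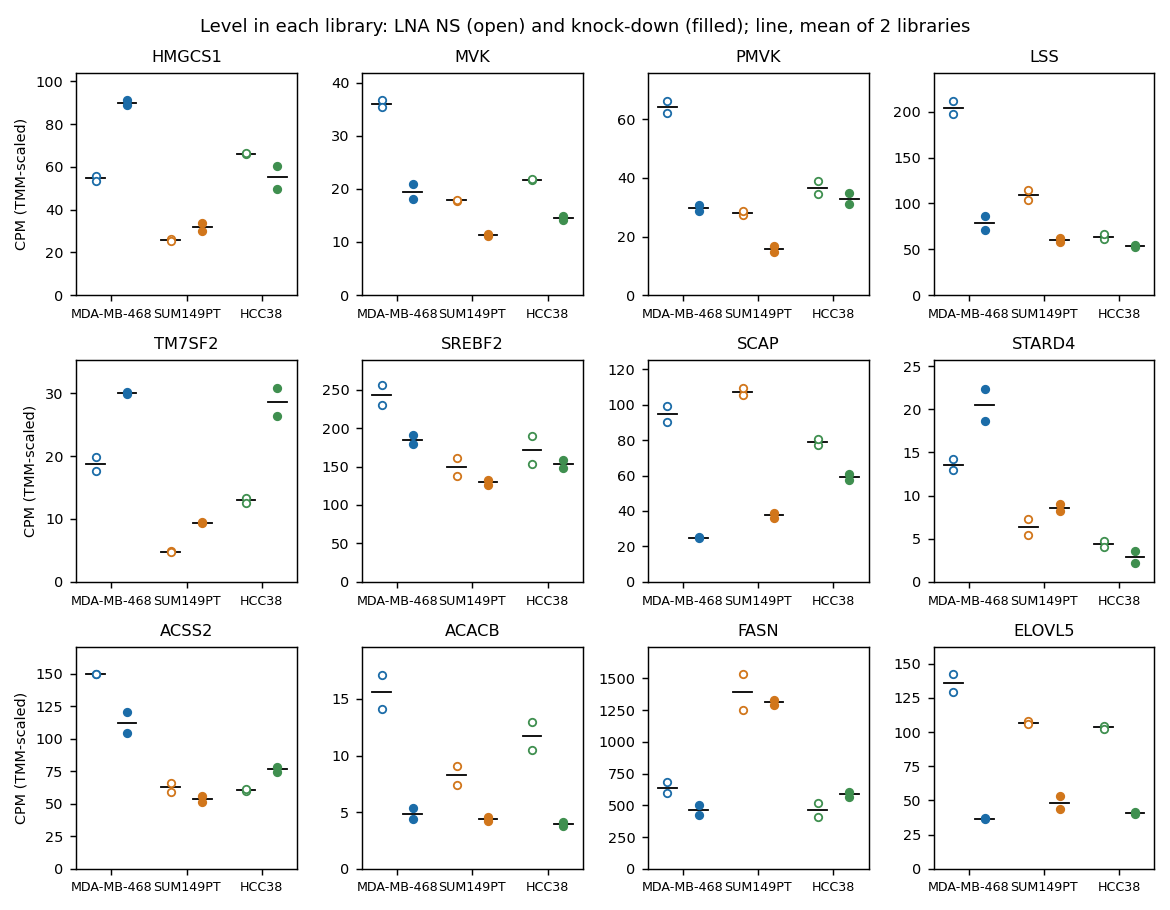
The level in CPM (vertical axis, from 0) of 12 genes in each library, with open circles for LNA NS, filled circles for KD and a line at the mean of the 2 libraries. MVK, SCAP, ELOVL5 and ACACB lie lower in both KD libraries of every line, TM7SF2 lies higher, and HMGCS1, STARD4, ACSS2 and FASN go different ways in MDA-MB-468 and HCC38.

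SCAP had the largest fall of the regulators, and the smallest adjusted p of the 34 genes in the F test between lines. It encodes the escort that carries SREBP precursors from the endoplasmic reticulum to the Golgi for cleavage. SCAP was at 99.3 and 90.2 CPM in LNA NS and 25.1 and 24.9 in KD of MDA-MB-468, at 105 and 109 against 39.1 and 35.8 in SUM149PT, and at 77.4 and 80.5 against 57.5 and 60.6 in HCC38. The log2 fold changes were -1.92 ± 0.09, -1.52 ± 0.09 and -0.42 ± 0.09, so that 26.4%, 34.9% and 74.8% of the control level was left (F test of the lines, adjusted p = 9.04e-06). It fell under each of the alternatives and omissions tried.

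The SREBP genes moved far less than SCAP. SREBF2 was at 230 and 256 CPM in LNA NS and 190 and 180 in KD of MDA-MB-468, at 161 and 138 against 132 and 126 in SUM149PT, and at 153 and 189 against 159 and 148 in HCC38. It fell in MDA-MB-468 by 0.39 ± 0.11 on the log2 scale and in the mean by 0.25 ± 0.06 (adjusted p = 0.00318). It passed in SUM149PT without LNA NS replicate 2 (-0.32) and in HCC38 without LNA NS replicate 1 (-0.31). SREBF1 was at 92.4 and 104 CPM against 124 and 112 in MDA-MB-468, 136 and 130 against 117 and 119 in SUM149PT, and 50.0 and 55.1 against 61.2 and 60.1 in HCC38. It rose in MDA-MB-468 by 0.26 ± 0.09, a call lost without LNA NS replicate 1 (0.17) or KD replicate 1 (0.18), and its difference between lines (adjusted p = 0.0389) was lost without SUM149PT LNA NS replicate 1 or either SUM149PT KD library (adjusted p = 0.110 to 0.148). SREBF1 rose in HCC38 with DESeq2 size factors, upper quartile scaling, the DESeq2 test or at least 10 counts in every library (0.23 to 0.33). It rose in the mean with upper quartile scaling (0.21) or at least 10 counts (0.13), and fell in SUM149PT with the span trend removed (-0.25).

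The INSIG genes, whose products hold SCAP in the endoplasmic reticulum, showed small changes. INSIG1, which SREBPs are known to induce, was at 22.9 and 23.8 CPM against 24.4 and 25.9 in MDA-MB-468, 66.4 and 63.2 against 54.4 and 59.2 in SUM149PT, and 8.98 and 8.64 against 7.61 and 8.83 in HCC38. None of its 3 log2 fold changes, 0.11, -0.19 and -0.10, passed the test. INSIG2 was at 29.7 and 24.0 CPM against 21.7 and 23.5 in MDA-MB-468, 12.4 and 12.3 against 13.6 and 12.3 in SUM149PT, and 17.1 and 12.1 against 9.92 and 11.5 in HCC38. It fell in HCC38 by 0.45 ± 0.16, but that rested on single libraries: without LNA NS replicate 1 it was -0.18, without KD replicate 1 it was -0.37, and without LNA NS replicate 2 it was -0.69. Its call in the mean (-0.21 ± 0.09, adjusted p = 0.0717) was lost in 6 omissions, those of replicate 1 of either treatment of MDA-MB-468 and HCC38, SUM149PT LNA NS replicate 1 and SUM149PT KD replicate 2, with values between -0.21 and -0.12.

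STARD4, a carrier of sterols between membranes, was at 12.9 and 14.3 CPM against 18.6 and 22.4 in MDA-MB-468, 7.31 and 5.47 against 8.16 and 9.03 in SUM149PT, and 4.72 and 3.99 against 3.59 and 2.15 in HCC38. It rose in MDA-MB-468 by 0.59 ± 0.19 on the log2 scale and fell in HCC38 by 0.57 ± 0.22 (F test of the lines, adjusted p = 0.0177). Omitting LNA NS replicate 1 (0.51) or KD replicate 2 (0.45) ended the MDA-MB-468 call. The same omissions in HCC38 (-0.45 and -0.28) ended the call there, as did upper quartile scaling (-0.45), and the value was -1.03 without KD replicate 1. STARD4 passed in SUM149PT without LNA NS replicate 1 of that line (0.65) or either HCC38 KD library (0.41 and 0.42), and in the mean without HCC38 KD replicate 2 (0.24).

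SREBPs bind sterol regulatory elements, commonly with help from the factors NF-Y and Sp1 nearby, and promoters from RefSeq (GRCh38.p14, 250 bases before to 50 after a start) were searched for these letters on both strands. Of the 34 genes, 30 matched a promoter, and a gene counted where any of its promoters held the motif. The NF-Y box CCAAT was in 13 of 15 sterol branch genes, 7 of 9 fatty acid genes and 3 of 6 regulators. It was in 41.9% of 13387 genes tested here that have a promoter and in 34.6% of all 35116 promoters. The GC box GGGCGG, to which Sp1 binds, was in 28 of 30 genes against 72.4% of the genes tested and 45.0% of all promoters. The sterol regulatory element TCACNCCAC was in 1 of 30, SREBF2, against 1.46% and 1.13%, and the E-box CACGTG in 5 of 30 against 11.8% and 7.26%. A match describes letters and not a bound site, and the letters searched are 1 form of each motif.

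The 250 bases before the start are shown for SREBF2, which held the sterol regulatory element, for SCAP, ELOVL5 and LSS, which had large falls, and for TM7SF2, which rose. Capitals mark the NF-Y box (ATTGG is CCAAT on the other strand) and, in SREBF2, the element TCACCCCAC, which begins 133 bases before the start, with the NF-Y box at 106. SCAP had no NF-Y box in this stretch, ELOVL5 had 2, and TM7SF2 had 1 at 74 bases before its start, so the gene that rose and genes that fell shared these letters. Positions on GRCh38.p14 are chr22:41832855-41833104 (plus strand) for SREBF2, chr3:47475942-47476191 (minus) for SCAP, chr6:53348951-53349200 (minus) for ELOVL5, chr21:46228775-46229024 (minus) for LSS and chr11:65111622-65111871 (plus) for TM7SF2, each written along the gene.
SREBF2: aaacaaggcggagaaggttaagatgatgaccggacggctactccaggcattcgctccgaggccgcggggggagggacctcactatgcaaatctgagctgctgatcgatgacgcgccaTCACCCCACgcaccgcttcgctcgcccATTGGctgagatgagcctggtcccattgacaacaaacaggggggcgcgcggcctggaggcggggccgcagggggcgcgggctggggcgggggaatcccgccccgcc
SCAP: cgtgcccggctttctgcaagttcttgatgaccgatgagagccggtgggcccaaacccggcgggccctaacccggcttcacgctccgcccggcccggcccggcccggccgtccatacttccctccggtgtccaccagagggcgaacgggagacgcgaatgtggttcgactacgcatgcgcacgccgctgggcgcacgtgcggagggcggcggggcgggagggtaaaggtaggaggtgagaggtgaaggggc
ELOVL5: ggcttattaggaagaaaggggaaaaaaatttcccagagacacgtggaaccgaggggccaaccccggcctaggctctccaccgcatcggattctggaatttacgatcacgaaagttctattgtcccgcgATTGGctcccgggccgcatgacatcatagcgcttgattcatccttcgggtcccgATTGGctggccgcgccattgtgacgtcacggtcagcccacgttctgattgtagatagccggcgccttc
LSS: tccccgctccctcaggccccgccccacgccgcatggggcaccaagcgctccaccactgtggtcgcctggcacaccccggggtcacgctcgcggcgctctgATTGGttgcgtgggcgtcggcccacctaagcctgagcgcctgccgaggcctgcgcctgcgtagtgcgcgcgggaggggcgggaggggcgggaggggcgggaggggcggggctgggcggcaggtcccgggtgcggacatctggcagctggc
TM7SF2: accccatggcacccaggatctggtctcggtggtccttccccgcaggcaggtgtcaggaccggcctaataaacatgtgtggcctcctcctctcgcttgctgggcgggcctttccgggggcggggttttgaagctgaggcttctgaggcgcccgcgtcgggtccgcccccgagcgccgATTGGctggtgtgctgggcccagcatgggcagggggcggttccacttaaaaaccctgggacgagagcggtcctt

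In the fatty acid branch, ELOVL5, ACACB and ELOVL6 had the largest falls in the mean. ELOVL5, an elongase of polyunsaturated chains, was at 142 and 129 CPM in LNA NS and 36.3 and 37.1 in KD of MDA-MB-468, at 108 and 106 against 53.0 and 43.5 in SUM149PT, and at 105 and 102 against 41.2 and 39.9 in HCC38. Every KD library lay under every control library, across the lines too. The log2 fold changes were -1.89 ± 0.10, -1.14 ± 0.10 and -1.35 ± 0.10, and the mean was -1.46 ± 0.06 (edgeR adjusted p = 2.31e-11). ELOVL6, which lengthens the saturated and monounsaturated chains that FASN and SCD leave, was at 12.2 and 11.7 CPM against 5.41 and 5.70 in MDA-MB-468, 55.9 and 56.5 against 40.2 and 36.4 in SUM149PT, and 37.9 and 37.4 against 18.0 and 18.4 in HCC38. It fell by 1.11 ± 0.11, 0.55 ± 0.10 and 1.05 ± 0.10 on the log2 scale. ELOVL1, an elongase of very long chains, fell by 0.46 ± 0.09, 0.25 ± 0.09 and 0.38 ± 0.09, and its SUM149PT call was lost without either control (-0.25 each) or KD replicate 2 (-0.17) of that line.

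ACACB, the acetyl-CoA carboxylase of the mitochondrial surface, was at 14.1 and 17.1 CPM against 5.34 and 4.40 in MDA-MB-468, 9.10 and 7.39 against 4.22 and 4.61 in SUM149PT, and 10.5 and 13.0 against 4.14 and 3.74 in HCC38. Its log2 fold changes were -1.68 ± 0.17, -0.91 ± 0.18 and -1.57 ± 0.18. ACACB overlaps UNG on the same strand, which had a mean of 5865 counts a library against 334 for ACACB. ACLY, which makes cytosolic acetyl-CoA from citrate and so feeds both branches, fell by 1.05 ± 0.11, 0.60 ± 0.11 and 0.47 ± 0.11 on the log2 scale. The responses of ACACB, ACLY and ELOVL6 differed between lines (adjusted p = 0.0595, 0.0274 and 0.0159). That of ACACB was lost without MDA-MB-468 LNA NS replicate 2 or KD replicate 2, either SUM149PT KD library or SUM149PT LNA NS replicate 2 (adjusted p = 0.113 to 0.226), that of ACLY without MDA-MB-468 LNA NS or KD replicate 2 (adjusted p = 0.160 and 0.144), and that of ELOVL6 without SUM149PT KD replicate 1 (adjusted p = 0.103).

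FASN and ACSS2 fell in MDA-MB-468 and rose in HCC38. FASN, the synthase that builds palmitate, was at 594 and 683 CPM in LNA NS and 501 and 423 in KD of MDA-MB-468, at 1532 and 1251 against 1332 and 1288 in SUM149PT, and at 412 and 520 against 608 and 565 in HCC38. ACSS2, which makes acetyl-CoA from acetate, was at 150.1 in both controls against 121 and 104 CPM in MDA-MB-468, 65.9 and 59.1 against 51.4 and 56.3 in SUM149PT, and 60.1 and 61.3 against 78.0 and 74.7 in HCC38. The 2 treatments did not overlap in MDA-MB-468 or HCC38 for either gene. In SUM149PT FASN overlapped, and ACSS2 did not overlap although its test did not pass there. The share of all genes without overlap was not counted, so this is a description only. The log2 fold changes were -0.47 ± 0.12, -0.09 ± 0.12 and 0.33 ± 0.12 for FASN and -0.42 ± 0.10, -0.22 ± 0.10 and 0.33 ± 0.10 for ACSS2, and the lines differed (adjusted p = 0.011 and 0.00299). The HCC38 rises were lost without LNA NS replicate 1 (FASN 0.17, ACSS2 0.31) or KD replicate 1 (0.26 and 0.28), and FASN was 0.51 without LNA NS replicate 2. With the gene span trend removed the FASN rise in HCC38 was also lost (0.28). ACSS2 passed in SUM149PT without LNA NS replicate 2 (-0.30), and in the mean without that library (-0.13) or MDA-MB-468 KD replicate 1 (-0.14).

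SCD, which puts the first double bond into saturated chains, passed in no line, at 0.30 ± 0.14, -0.02 ± 0.14 and -0.04 ± 0.14 (log2). In MDA-MB-468 its adjusted p was 0.105, and leaving out any 1 of 6 libraries of the other lines (SUM149PT LNA NS replicates 1 and 2 and all 4 of HCC38) brought it under the threshold, with 0.29 each. FADS2, which starts the making of polyunsaturated fatty acids, fell by 0.66 ± 0.15, 0.40 ± 0.11 and 0.52 ± 0.11, and its SUM149PT call was lost without LNA NS replicate 1 (-0.31). FADS1, the desaturase that acts after it, fell in SUM149PT by 0.43 ± 0.12, a call lost without LNA NS replicate 1 (-0.33) or KD replicate 2 (-0.34), and it passed in MDA-MB-468 without KD replicate 1 (-0.46). FADS1 and FADS2 overlap on opposite strands, and FADS2 overlaps FEN1 on its own strand, with a mean of 7531 counts a library for FEN1 and 2957 for FADS2.

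The response differed between lines for 16 of the 34 genes, where 32.4% of all genes tested differed (edgeR F test over the 3 contrasts, adjusted p under 0.1). They were 7 of 18 sterol branch genes, 3 of 6 regulators and 6 of 10 fatty acid genes. The 5 with the smallest adjusted p were SCAP, LSS, MVD, HMGCS1 and PMVK. In each of these 5 the MDA-MB-468 value was the farthest from 0 and the HCC38 value the lowest in size. Opposite calls in 2 lines were found for 4 genes, HMGCS1, STARD4, ACSS2 and FASN, and all 4 of their F tests held under each omission of a library, although the HCC38 call of each was lost in 2 or more omissions. NSDHL lost its difference (adjusted p = 0.0234) without MDA-MB-468 LNA NS replicate 1 or KD replicate 2 (adjusted p = 0.119 and 0.126). Differences were made by an omission for CYP51A1 without MDA-MB-468 LNA NS replicate 1 (adjusted p = 0.0517), and for MSMO1, INSIG2 and FDPS without HCC38 LNA NS replicate 2 (adjusted p = 0.023, 0.0507 and 0.0978). Some calls in the mean were made in the same way, for FDPS without HCC38 LNA NS replicate 2 (-0.13) and for HSD17B7 without HCC38 LNA NS or KD replicate 1 (-0.28 and -0.31).

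Several of the genes that fell most are long. Over all genes tested, the smoothed log2 fold change fell from 0.13 at a span of 5 kb to -0.45 at 150 kb in MDA-MB-468, from 0.05 to -0.13 in SUM149PT and from 0.13 to -0.31 in HCC38. Of the 34 genes, 8 span over 50 kb, and 7 of these fell in the mean, where 26.5% of all genes tested fell. The share of all genes of such a span that fell was not counted. SCAP and SREBF2 aside, these 8 are fatty acid genes. ELOVL6 spans 153 kb, ACACB 152 kb, ELOVL5 81.8 kb and SCAP 63.4 kb (GRCh37). With the trend removed, the mean log2 fold change went from -0.90 to -0.60 for ELOVL6, from -1.39 to -1.09 for ACACB, from -1.46 to -1.32 for ELOVL5 and from -1.29 to -1.21 for SCAP, and all 4 still passed. The differences between lines of ACACB and ELOVL6 then missed the threshold (adjusted p = 0.271 and 0.213), and so did SREBF2 and SC5D in MDA-MB-468 (-0.20 and 0.33), HMGCS1 in SUM149PT (0.24), and LSS and FASN in HCC38 (-0.21 and 0.28). Against these 5 member calls lost in a line, 13 in a line or the mean were gained, all of them falls. Among them were FDPS (-0.20), DHCR7 (-0.16) and INSIG1 (-0.16) in the mean. ELOVL1 spans 4.68 kb and TM7SF2 4.54 kb, and these short genes moved in opposite directions.

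**Figure D3:**
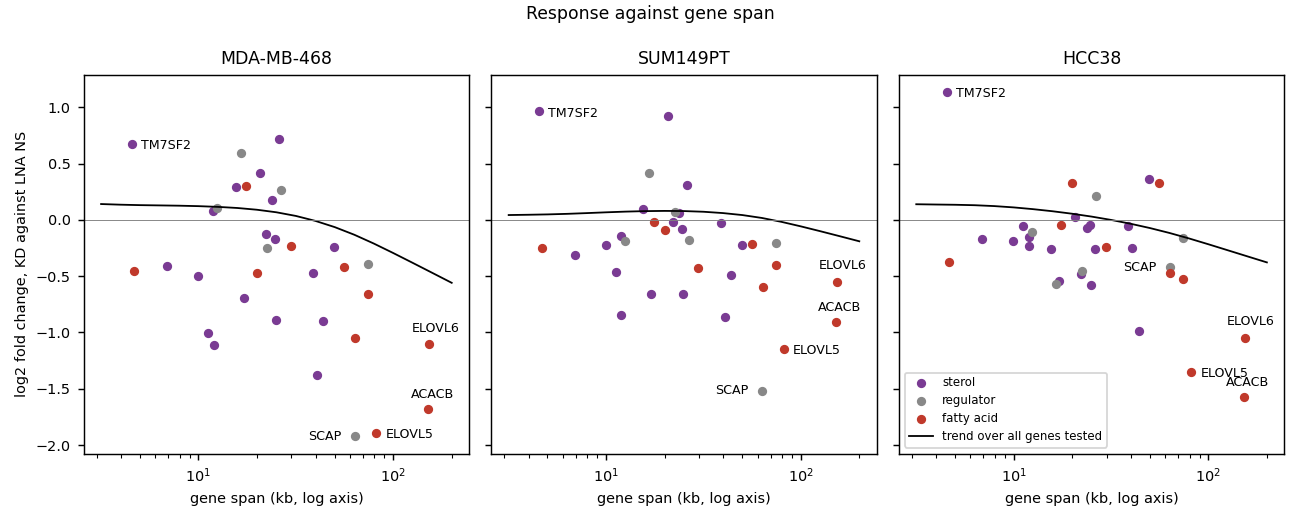
The log2 fold change of KD against LNA NS (vertical axis) of the 34 genes against gene span in kb (log axis) in each line, colored by branch, with a black line for the smoothed trend over all genes tested. SCAP, ELOVL5 and ACACB lie far under the trend in MDA-MB-468 and SUM149PT, and SCAP lies closer to it in HCC38 than in the other lines.

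The control libraries of the 3 lines differed in all 34 genes, where 85.9% of all genes tested differed (edgeR F test over the LNA NS groups, adjusted p under 0.1). CYP51A1 passed narrowly (adjusted p = 0.0977) and was lost in 9 of the 12 omissions of a library (adjusted p = 0.110 to 0.375), all but those of MDA-MB-468 LNA NS replicate 2 and the 2 HCC38 KD libraries, and also with the DESeq2 test and with at least 10 counts in every library. MSMO1 was lost without SUM149PT LNA NS replicate 2 (adjusted p = 0.119). A line, its medium and its handling cannot be told apart. MDA-MB-468 had the highest level in 14 of 18 sterol branch genes, 12 of them above the next line by the test, and the lowest in 3. In the fatty acid branch SUM149PT was highest in 5 of 10 genes and MDA-MB-468 in 3, and MDA-MB-468 was lowest in 4. The shares of all genes tested with each line highest or lowest were not counted, so these numbers are descriptions only. For 3 genes (IDI1, FDFT1 and CYP51A1) the highest line was not told apart from the next, and for 7 (CYP51A1, MSMO1, DHCR7, SREBF2, INSIG2, ACSS2 and ELOVL5) the middle was not told apart from the lowest.

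The desaturases FADS1 and FADS2 differed most. FADS1 was at 3.70 and 4.54 CPM in the controls of MDA-MB-468, 196 and 174 in SUM149PT, and 109 and 120 in HCC38. FADS2 was at 4.11 and 4.31, 93.9 and 83.7, and 138 and 151 CPM in the same lines. The fitted level of FADS1 was 44.8-fold higher in SUM149PT than in MDA-MB-468, and that of FADS2 34.3-fold higher in HCC38 than in MDA-MB-468 (adjusted p = 4.56e-14 and 4.06e-14). ELOVL6 was also lowest in MDA-MB-468, 4.70-fold under SUM149PT. Their KD libraries kept the order, with FADS1 at 4.00 and 3.01 CPM in MDA-MB-468, 146 and 130 in SUM149PT, and 97.1 and 95.9 in HCC38. FADS2 in KD was at 3.06 and 2.26, 69.2 and 65.1, and 102 and 98.7 CPM.

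Several sterol branch genes had their highest level in MDA-MB-468. SC5D was 8.64-fold higher in MDA-MB-468 than in SUM149PT, MVD 4.10-fold higher than in HCC38 and TM7SF2 3.89-fold higher than in SUM149PT. The branch was not uniform, since SQLE, CYP51A1 and MSMO1 were lowest in MDA-MB-468, with SQLE 2.13-fold higher in HCC38. Among the regulators, INSIG1 was 7.35-fold higher in SUM149PT than in HCC38, STARD4 3.12-fold higher in MDA-MB-468 than in HCC38, and SREBF1 2.53-fold higher in SUM149PT than in HCC38. SCAP itself differed by 1.36-fold between its highest line, SUM149PT, and its lowest, HCC38. FASN and SCD were highest in SUM149PT too, 2.99-fold and 4.60-fold over HCC38.

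Per length of exon (RPKM, the CPM per kb of the union of exons), FASN was the highest of the 34 genes in SUM149PT at 149 ± 21.3 (SD, n = 2), EBP in MDA-MB-468 at 81.2 ± 4.19, and ACLY in HCC38 at 94.9 ± 11.3. The lowest were FADS2 in MDA-MB-468 at 0.399 ± 0.0128, ACACB in SUM149PT at 0.568 ± 0.0833 and HSD17B7 in HCC38 at 0.545 ± 0.112. With the length of the canonical transcript, EBP and FASN kept the top rank in MDA-MB-468 and SUM149PT, while FDFT1 took it in HCC38 at 118 RPKM, ahead of ACLY at 115. The lowest rank then went to FADS1 in MDA-MB-468 at 0.945 RPKM and to STARD4 in HCC38 at 0.941, and stayed with ACACB in SUM149PT.

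**Figure D4:**
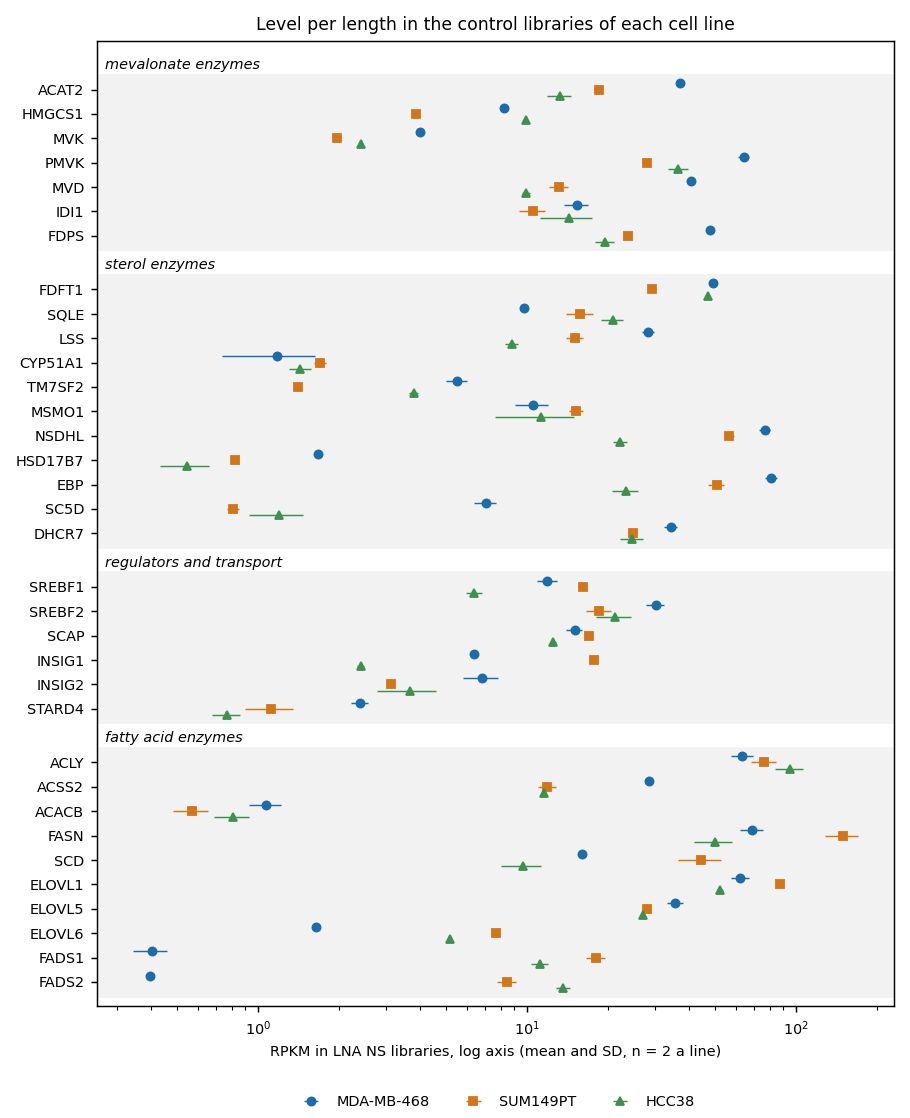
The level per exon length in RPKM (log axis) of each gene in the LNA NS libraries of each line, as mean and SD of 2 libraries. FADS1, FADS2 and ELOVL6 lie far to the left in MDA-MB-468, and most sterol branch genes lie to the right in MDA-MB-468.

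Other genes of the same pathways were counted from lists, to be read beside the 26.5% of all genes tested that fell and the 28.4% that rose in the mean, to which several of these counts are near. Of 8 genes of SREBP cleavage and sterol-regulated degradation, 5 fell and 2 rose in the mean. ERLIN1, a membrane protein of that degradation, fell by 0.64 ± 0.07 on the log2 scale, and FAF2, a degradation factor, rose by 0.55 ± 0.05. Of 4 oxysterol receptors and targets, 2 rose and 1 fell, with MYLIP, a ligase of lipoprotein receptors that oxysterols induce, at 0.91 ± 0.08 and the receptor gene NR1H3 at -0.35 ± 0.07. Of 6 genes of cholesterol trafficking and esterification, 2 rose and 2 fell, with GRAMD1A, a sterol carrier, at -0.82 ± 0.06 and OSBP, another, at 0.36 ± 0.05. Of 8 genes that use isoprenoids, 4 rose and 4 fell, with DHDDS, which makes dolichol, at -0.54 ± 0.06 and the prenyltransferase subunit FNTA at 0.66 ± 0.07.

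Of 11 genes of the elongation cycle and desaturation, 6 fell and 3 rose. ELOVL4, an elongase of very long chains, rose by 2.04 ± 0.12, 1.25 ± 0.13 and 1.63 ± 0.13 (log2) in MDA-MB-468, SUM149PT and HCC38, whereas FADS3, a relative of FADS1 and FADS2, fell by 1.07 ± 0.09, 0.88 ± 0.10 and 0.38 ± 0.09. Of 12 genes of acyl-CoA activation and glycerolipid synthesis, 3 rose and 3 fell, among them ACSL3 at 0.47 ± 0.05 and ACSL4 at -0.43 ± 0.07, both acyl-CoA synthetases. Of 9 genes of fatty acid oxidation, 7 fell and none rose in the mean, with CPT2 at -0.83 ± 0.08 and CPT1A at -0.61 ± 0.06, the carnitine transferases of mitochondrial import. In MDA-MB-468 alone 6 of the 9 fell, in SUM149PT 3 fell and 1 rose, and in HCC38 5 fell and 1 rose, beside the shares of all genes given above.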

How the data were processed

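Poly-A RNA-seq of 12 libraries was analysed. The authors deposited whole-number read counts per Ensembl gene (GRCh37), with no normalization. The submitters' processing notes list HTSeq 0.6.0 and TopHat2 2.0.13 beside other tools, whereas the study's methods name STAR as the aligner, so the aligner is unsettled. Lines that name no gene held 40.8% to 53.7% of each library's counts and were left out.

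Genes passing filterByExpr (minimum count 10, total 15) were fitted in edgeR 4.0.16 (R 4.3.3, TMM scaling, quasi-likelihood, 6 group means over 12 libraries, 6 residual degrees of freedom). Contrasts were KD against LNA NS in each line, their mean with equal weights, the difference between lines and the LNA NS levels. P-values were Benjamini-Hochberg adjusted over all genes tested, with a threshold of 0.1. CPM and RPKM were computed here from the counts, with exon lengths from GENCODE. The scripts were tested on simulated data. DESeq2 1.42.0, other scalings and filters, a replicate block, removal of a gene span trend and omission of each library were the alternatives.

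Values in every library are given for the 3 genes with the smallest adjusted p in the mean in each of 4 groups, genes with opposite calls, the 5 with the smallest adjusted p between lines and the 3 with the largest baseline difference in each branch, with some neighbours of these in the pathway added after their values were seen. From each other list the 2 genes with the smallest adjusted p are named. Members and lists were chosen with earlier results of these data known. The 2 libraries of each group differed beyond sampling noise (15.8 to 27.9 in chi-square per degree of freedom).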

Additional observations from a re-analysis of the deposited data

Results flagged for a closer look

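The response to the knock-down differed between the 3 lines for 16 of the 34 genes, by the edgeR F test over the 3 contrasts. By the same test 32.4% of all genes tested differed. In the sterol branch the adjusted p was 0.00036 for LSS, 0.000891 for MVD, 0.000976 for HMGCS1, 0.00124 for PMVK, 0.0135 for FDFT1, 0.0234 for NSDHL and 0.0368 for SC5D. Among the regulators it was 9.04e-06 for SCAP, 0.0177 for STARD4 and 0.0389 for SREBF1. In the fatty acid branch it was 0.00299 for ACSS2, 0.0038 for ELOVL5, 0.011 for FASN, 0.0159 for ELOVL6, 0.0274 for ACLY and 0.0595 for ACACB. Groups of 2 libraries are too small for a search for single libraries that stand apart.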

How the results depend on the processing

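No called value of a gene turned its direction under the alternatives run. Upper quartile scaling moved the median of all genes by 0.14 (log2) in MDA-MB-468, 0.06 in SUM149PT, 0.12 in HCC38 and 0.11 in the mean. Under it, the sterol branch had 6 genes that rose in MDA-MB-468 (3 with TMM) and 2 in HCC38 (1 with TMM), and 3 that fell in HCC38 (6 with TMM). The regulators then had 1 that rose in SUM149PT, 1 in HCC38 and 2 in the mean (0 each with TMM) and 1 that fell in HCC38 (3 with TMM), and the fatty acid branch had 1 that rose in MDA-MB-468 and 1 in the mean (0 with TMM). Sterol branch falls in HCC38 were also 3 with no filter, with the replicate block and with each line fitted alone. With the gene span trend removed, 1 regulator fell in MDA-MB-468 (otherwise 2) and 3 in SUM149PT (otherwise 1), and 1 fatty acid gene rose in HCC38 (otherwise 2). A regulator that rose, against 0, was counted in HCC38 with DESeq2 size factors, the DESeq2 test and at least 10 counts in every library (1 each), in SUM149PT with each line fitted alone (1) and in the mean with at least 10 counts (1). A fatty acid gene that rose in MDA-MB-468, against 0, was counted with DESeq2 size factors, the DESeq2 test, no filter, at least 10 counts, each line fitted alone and the crossed block (1 each).

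Leaving out each library in turn gave 3 to 6 sterol branch genes that fell in HCC38, with 3 without HCC38 KD replicate 2. For the regulators it gave 0 to 2 that rose in MDA-MB-468, 0 to 1 in SUM149PT and 0 to 1 in the mean, and 1 to 2 that fell in SUM149PT. For the fatty acid branch it gave 0 to 1 that rose in MDA-MB-468, 0 to 2 that rose in HCC38, with 0 without HCC38 LNA NS or KD replicate 1, and 4 to 7 that fell in SUM149PT, with 4 without SUM149PT LNA NS replicate 1. Of the single values under these omissions, 1555 kept their direction and side of the threshold, 51 lost the call and 26 gained one.

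Libraries with the same replicate number did not deviate together over all genes tested (correlation -0.0052, 0.0971 and -0.118 in MDA-MB-468, SUM149PT and HCC38). These correlations are dominated by the noise of many genes and cannot settle whether the numbers pair the samples. The replicate block moved the genes called from 10783 to 10309, 8101 to 7392 and 7243 to 6413 in the same lines, and 4 member calls missed the threshold under it, HMGCS1, FDPS and LSS in HCC38 and INSIG2 in the mean (adjusted p = 0.101, 0.111, 0.150 and 0.120), besides the differences between lines of ACACB and SREBF1 (0.123 and 0.103). With the HCC38 numbers crossed, chosen after seeing the data, 7907 genes were called in HCC38 and 2 regulators fell in SUM149PT. The cause of these moves was not tested. With 2 libraries a group, small changes of the least abundant genes were not detectable.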
